A study of Saccharomyces cerevisiae with 21 samples.

Results

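RNA polymerase II subunit genes encode the enzyme that transcribes all protein-coding genes of budding yeast. The 10 genes described here were chosen by their open reading frame names: RPO21 (YDL140C), RPB2 (YOR151C), RPB3 (YIL021W), RPB4 (YJL140W), RPB5 (YBR154C), RPB7 (YDR404C), RPB8 (YOR224C), RPB9 (YGL070C), RPB10 (YOR210W) and RPB11 (YOL005C). They are 10 of the 7126 features in the deposited table, and all 10 were among the 5742 protein-coding genes that passed the filter on low counts. RPO26 and RPC10, which encode subunits shared with the other polymerases, are not among these genes and are given further below. Nascent RNA, copurified with the polymerase through a FLAG tag on its Rpb3 subunit, was sequenced in 7 groups of 3 biological replicates.

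All strains were MATa derivatives of BY4741 with his3D1, leu2D0, met15D0 and ura3D0 and carried RPB3-3xFLAG, so 1 of the 10 genes bore the purification tag in every library and an untagged strain was not analysed here. WT cells had no further change and received neither IAA nor DMSO. The STH1-AID strain carried STH1-3V5-IAA7, the RAP1-AID strain RAP1-3V5-IAA7, and the RAP1-AID/STH1-AID strain both, each together with osTIR, the rice receptor that hands the tagged protein to the proteasome, under the constitutive GPD1 promoter. These strains were treated in exponential growth with 500 μM IAA, an auxin that triggers the degradation, or with the same volume of DMSO. Each degron strain differed from WT in the tag, osTIR and DMSO at once. It also carried the LEU2 and KANMX6 selection markers inserted with osTIR and the tag, which WT lacked. These differences cannot be told apart. Loss of the Sth1 and Rap1 proteins cannot be read from RNA.

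Sth1 is the ATPase of RSC, the essential remodeller that keeps nucleosomes away from yeast promoters, and Rap1 is a DNA-binding factor best known at ribosomal protein gene promoters and telomeres. In the polymerase, Rpo21 and Rpb2 form the catalytic centre, Rpb3 and Rpb11 the heterodimer on which it assembles, and Rpb4 and Rpb7 the stalk that can leave the core. Rpb9 sits at the jaw and takes part in start site choice and fidelity, and Rpb5, Rpb8 and Rpb10 are shared with RNA polymerases I and III.

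Libraries held between 18289832 and 23182315 expected counts, with a median of 20675890. The 10 genes had between 219 and 66005 counts per library, and all 210 of these values were whole numbers, so none was divided with another gene. Together they took 0.283% to 0.371% of the counts in the WT, DMSO-treated and Rap1-depleted libraries and 0.399% to 0.518% in the Sth1-depleted and co-depleted libraries. Most of this sum came from the longest genes, RPO21 and RPB2, which held 30845 and 21373 of 64545 counts in WT replicate 1. Values are relative to the rest of each library, and a change in total transcription per cell would not be seen. Below, CPM is the count relative to the TMM-scaled library size and serves comparisons of 1 gene between groups, whereas TPM corrects for length and serves comparisons between genes.

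In WT, the mean TPM ranged 6.53-fold across the 10 genes. RPB10 had the highest mean, 442 ± 94.3 TPM (SD, n = 3), and RPB3, whose libraries overlapped with it, had 336 ± 11.7 TPM. RPB5 (295 ± 26.9 TPM), RPO21 (285 ± 37.8 TPM) and RPB2 (272 ± 36.8 TPM) had overlapping libraries. RPB8 (190 ± 5.38 TPM) and RPB9 (181 ± 5.72 TPM) lay below these 3, and RPB11 was lower again at 133 ± 13.9 TPM. The stalk genes RPB7 (71.6 ± 4.84 TPM) and RPB4 (67.7 ± 8.47 TPM) were the lowest, and their libraries overlapped. The order depended on how length was treated. As CPM per kb of coding length, RPO21 came first with 327 ± 30.3 and RPB10, a gene of 213 bp, came seventh with 88.0 ± 10.9, and RPB4 (55.5 ± 5.75) and RPB7 (51.0 ± 2.67) changed places. RPB4 had the lowest mean TPM in all 7 groups, and RPB3 had the highest in the 6 groups other than WT. These are ranks of mean TPM, and CPM per kb was computed in WT only. RPB3 was not separate from the next gene in every group. After co-depletion its libraries spanned 397 to 522 TPM and those of RPO21 360 to 504 TPM.

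**Figure D1:**
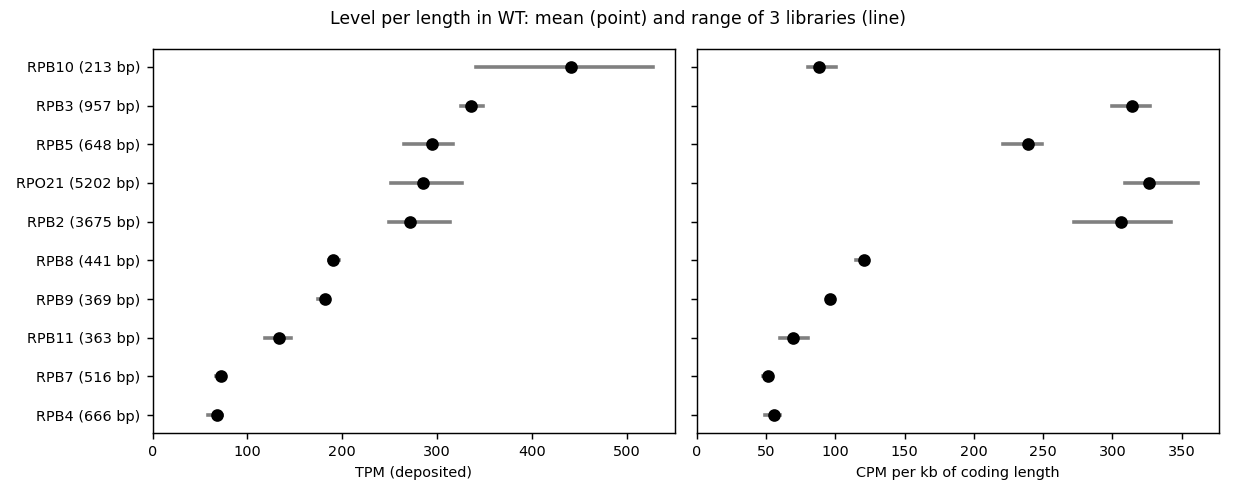
Level per length of the 10 genes in WT, as deposited TPM (left) and as CPM per kb of coding length (right), with points for means and lines for the range of 3 libraries. RPB10 moves from first on the left to seventh on the right, while RPB4 and RPB7 are lowest on both scales.

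The genes lie on 6 chromosomes of the R64 assembly, in the RefSeq annotation each has 1 coding segment, and none overlaps another annotated gene. Genome sequence is shown for the 3 genes that rose after every depletion (RPB11, RPB7 and RPB4) and for RPB9, which fell after Sth1 depletion. Each is the 200 bases that end 100 bases before the start codon, 5′ to 3′ on the strand of the gene, with the bases next to the start codon left out because the annotation gives no transcription start sites. The RPB9 window reaches into the annotated neighbouring gene MNP1, which lies 259 bp away. Capitals mark matches on either strand to CGCG or CGGG (the core letters of the RSC motif), AAAAAAA (an A tract) and CGGGTAA (Reb1), the last of which contains CGGG.
RPB11 (chrXV:316276-316475, - strand): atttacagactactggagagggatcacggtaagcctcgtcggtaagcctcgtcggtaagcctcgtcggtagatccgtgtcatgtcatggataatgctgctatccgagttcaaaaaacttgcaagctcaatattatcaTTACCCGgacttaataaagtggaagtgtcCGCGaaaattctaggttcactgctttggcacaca
RPB7 (chrIV:1277270-1277469, - strand): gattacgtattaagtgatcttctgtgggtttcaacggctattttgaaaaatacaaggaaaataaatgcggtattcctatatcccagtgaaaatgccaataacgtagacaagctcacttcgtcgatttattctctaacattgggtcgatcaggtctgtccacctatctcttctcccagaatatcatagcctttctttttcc
RPB4 (chrX:150661-150860, + strand): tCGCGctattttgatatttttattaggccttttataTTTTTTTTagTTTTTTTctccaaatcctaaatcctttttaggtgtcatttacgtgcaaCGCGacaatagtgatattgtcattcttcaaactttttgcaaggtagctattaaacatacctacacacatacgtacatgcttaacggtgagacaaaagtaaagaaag
RPB9 (chrVII:374928-375127, - strand): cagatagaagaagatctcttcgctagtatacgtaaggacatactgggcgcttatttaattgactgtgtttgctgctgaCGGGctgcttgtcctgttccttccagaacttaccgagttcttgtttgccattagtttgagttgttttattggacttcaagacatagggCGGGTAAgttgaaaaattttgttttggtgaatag
Of 6001 such windows in the genome, 51.7% held CGCG or CGGG, 40.5% an A tract and 7.68% the Reb1 letters. Among the 10 genes, 5 held CGCG or CGGG (RPB3, RPB11, RPB4, RPB9 and RPB5), 6 an A tract and 2 the Reb1 letters. The Reb1 letters were in RPB11, which rose, and in RPB9, which fell, while the window of RPB7 held none of these letters. The Rap1 letters ACCCANACA (1.5% of windows) and the PAC letters GCGATGAG (2.92%) were in none of the 10.

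Sth1 depletion was compared with DMSO in the same strain to ask how nascent transcription of these genes responds to loss of RSC. Of the 10 genes, 8 rose, where 35.9% of all tested genes rose, and RPB9 fell, where 40.9% of all tested genes fell, at an adjusted p below 0.05 by edgeR's quasi-likelihood test. RPB10 did not pass. The median log2 fold change was 0.50 over the 10 genes and -0.06 over all 5742. None of the 10 moved past a log2 fold change of 1 in either direction, as 10.5% of all genes did upward and 15.9% downward. Every IAA library lay outside the range of the DMSO libraries for 8 genes upward (36.5% of all genes) and 1 downward (41.3%).

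RPO21, the largest subunit with the carboxy-terminal repeat domain, measured 1653, 1430 and 1782 CPM in the 3 DMSO libraries and 2839, 2624 and 3664 CPM in the 3 IAA libraries. All IAA libraries were above all DMSO libraries, and replicate 3 was the highest of both groups. The log2 fold change was 0.91 ± 0.15 (SE; adjusted p = 2.53e-05). RPB2, the second largest subunit, had a mean of 859 ± 133 CPM with DMSO and 1251 ± 132 CPM with IAA (SD, n = 3). It rose by a log2 fold change of 0.54 ± 0.13 by edgeR's test (adjusted p = 7.83e-04).

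RPB11 measured 28.2, 24.7 and 26.1 CPM with DMSO and 50.4, 49.6 and 54.0 CPM with IAA. The groups were far apart relative to their spread, and the log2 fold change of 0.96 ± 0.11 was the largest of the 10 (adjusted p = 1.00e-07). RPB3, its partner and the tagged subunit, rose by a log2 fold change of 0.48 ± 0.11 (adjusted p = 4.38e-04).

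The stalk genes did not move by the same amount. RPB7 measured 28.7, 33.0 and 30.9 CPM with DMSO and 56.5, 61.0 and 56.1 CPM with IAA, a log2 fold change of 0.91 ± 0.08 (adjusted p = 6.22e-09). RPB4 measured 42.6, 45.6 and 40.6 CPM with DMSO and 52.2, 53.3 and 46.6 CPM with IAA, a log2 fold change of 0.24 ± 0.09 (adjusted p = 0.0219). Both had separate groups, narrowly so for RPB4. The ratio of mean RPB4 to mean RPB7 TPM was 0.948 with DMSO and 0.597 with IAA. It was 0.945 in WT, 0.766 with DMSO and 0.856 with IAA in RAP1-AID, and 0.813 and 0.690 in RAP1-AID/STH1-AID. Differences in this ratio were not tested.

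RPB9 was the exception in direction. It measured 35.6, 41.1 and 39.3 CPM with DMSO and 24.3, 29.6 and 21.9 CPM with IAA, with every IAA library below every DMSO library. The log2 fold change was -0.62 ± 0.14 (adjusted p = 5.09e-04). Among the shared subunits, RPB8 rose from 57.3 ± 1.52 to 82.2 ± 3.00 CPM (log2 fold change 0.52, adjusted p = 4.01e-06) and RPB5 from 147 ± 5.13 to 175 ± 17.3 CPM (0.25, adjusted p = 0.0209). RPB10 measured 14.1, 13.6 and 13.7 CPM with DMSO and 14.6, 14.9 and 12.2 CPM with IAA, and its interval for the log2 fold change ran from -0.27 to 0.29.

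The 2 smallest increases were the least firm. The call of RPB4 was lost without DMSO replicate 1 (adjusted p = 0.0561) or 3 (0.107) or IAA replicate 1 (0.0673) or 2 (0.0935). That of RPB5 was lost without DMSO replicate 2 (adjusted p = 0.0552) or 3 (0.0857) or IAA replicate 1 (0.0529) or 2 (0.131). Scaling by total library size put the median of all genes at -0.31, RPB4 at -0.01 and RPB5 at -0.00060, so no direction is given for these 2 on that scale.

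**Figure D2:**
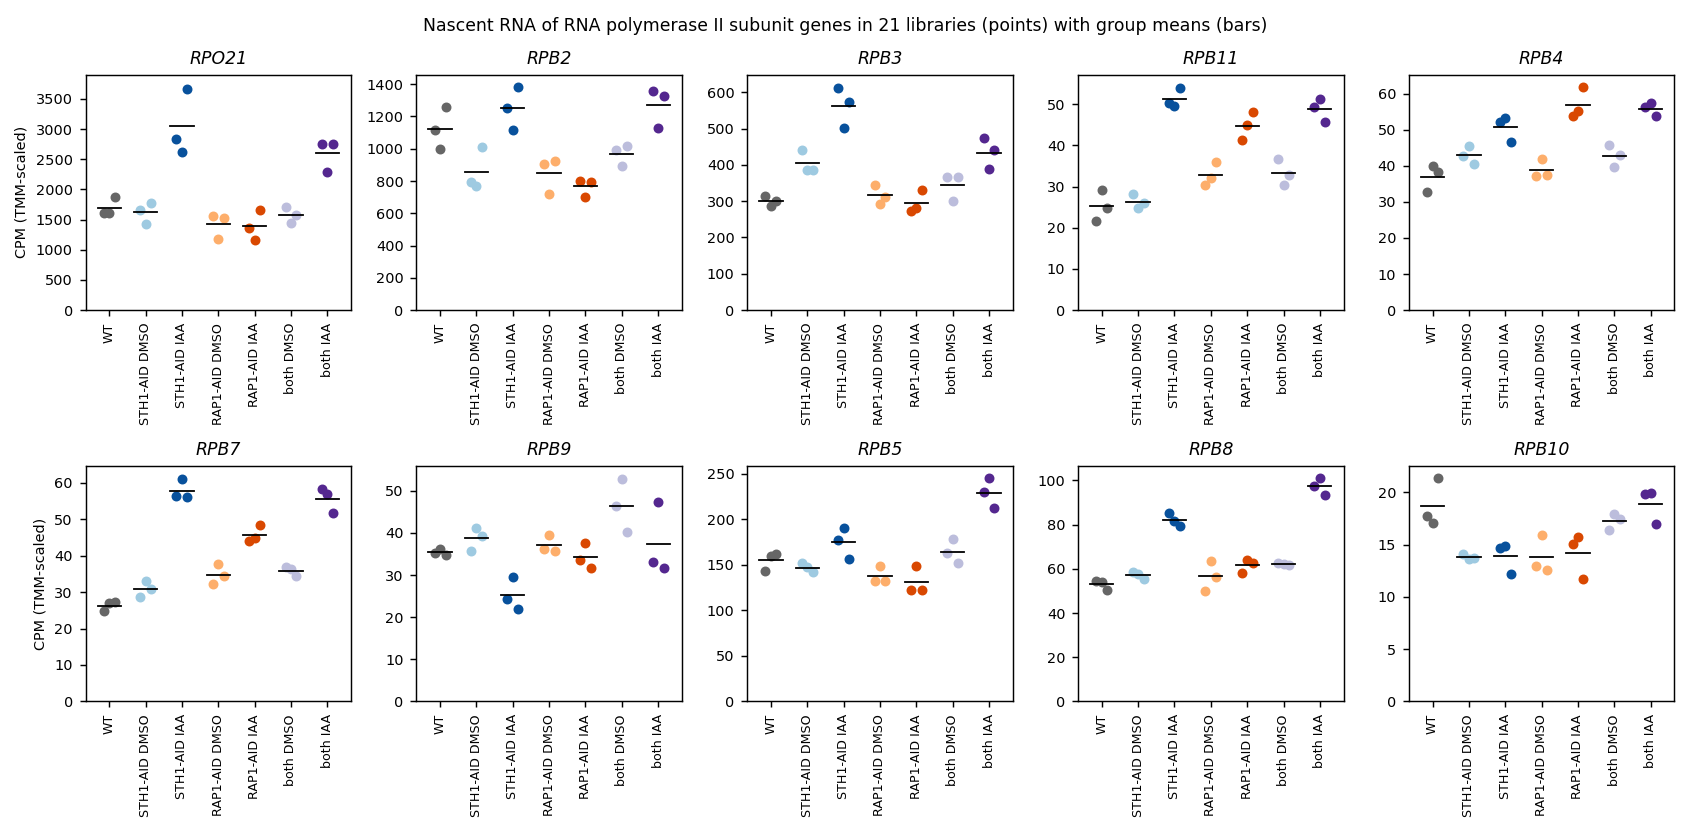
CPM of each gene in all 21 libraries, with points for libraries, bars for the means of 3, and a linear axis from 0 in each panel; "both" is the RAP1-AID/STH1-AID strain. For RPO21, RPB11 and RPB7 the Sth1-depleted and co-depleted libraries lie above all DMSO-treated and WT libraries, and for RPB9 the Sth1-depleted libraries lie below them.

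The genes next upstream were mixed in direction. After Sth1 depletion, where 35.9% of all genes rose and 40.9% fell, 6 of the 10 upstream neighbours rose and 3 fell. Of the 6 divergent neighbours, SIN3 beside RPB11 (log2 fold change 0.73), YAK1 beside RPB4 (0.86) and MRP20 beside RPB7 (0.93) rose. MNP1, 259 bp from RPB9, fell (-0.68), as did CNS1 beside RPB5 (-0.47), which rose, and NPT1 beside RPB10 (-1.36), which did not pass. Of the 4 tandem neighbours, SCM3 beside RPO21 (0.52), ATG40 beside RPB2 (1.08) and TIM44 beside RPB3 (0.87) rose, and ISU2 beside RPB8 had 0.27 and did not pass. Whether neighbours shared a direction more often than other genes was not tested. After Rap1 depletion, where 12.8% of all genes rose and 13.3% fell, none of the 10 neighbours passed by edgeR's test. Among them were SIN3 (-0.16, adjusted p = 0.375), YAK1 (0.15, adjusted p = 0.327) and MRP20 (0.20, adjusted p = 0.0820).

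Rap1 depletion was compared in the same way. The 3 genes RPB4, RPB7 and RPB11 rose and none fell, where 12.8% of all genes rose and 13.3% fell. The median log2 fold change was 0.00 over the 10 genes and 0.01 over all genes. RPB4 measured 37.0, 41.8 and 37.5 CPM with DMSO and 53.9, 55.1 and 61.9 CPM with IAA, a log2 fold change of 0.55 ± 0.09 (adjusted p = 1.15e-04). RPB11 rose from 32.8 ± 2.90 to 44.8 ± 3.40 CPM (0.45 ± 0.10, adjusted p = 0.00327) and RPB7 from 34.7 ± 2.75 to 45.8 ± 2.26 CPM (0.40 ± 0.08, adjusted p = 0.00107). In these 3 genes the groups did not overlap, as was so for 21.8% of all genes upward, and no gene had separate groups downward (20.4%). None moved past a log2 fold change of 1 (1.57% of all genes upward and 3.19% downward).

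The other 7 genes did not pass, with log2 fold changes between -0.15 for RPB2 and 0.12 for RPB8. RPO21, for example, measured 1556, 1172 and 1530 CPM with DMSO and 1358, 1154 and 1655 CPM with IAA. The median log2 fold change after Rap1 depletion differed between classes of gene length. The median log2 fold change was 0.21 over 673 genes under 500 bp, 0.11 over 1487 genes from 500 to under 1000 bp and -0.17 over 531 genes of 3000 bp or more. Of these classes, 13.1%, 19.8% and 3.01% of the genes rose. RPB11 has 363 bp, RPB7 516 bp and RPB4 666 bp, but RPB9 (369 bp), RPB8 (441 bp), RPB5 (648 bp) and RPB10 (213 bp) are as short and did not pass. The part of gene length in these values was not tested.

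After co-depletion, 8 genes rose, where 32.2% of all genes rose, and RPB9 was called lower, where 37.5% of all genes fell. The median log2 fold change was 0.44 over the 10 genes and -0.05 over all genes. RPO21 rose from 1576 ± 128 to 2598 ± 267 CPM (0.72 ± 0.15, adjusted p = 3.71e-04). RPB8 measured 62.5, 62.0 and 61.8 CPM with DMSO and 97.5, 101 and 93.5 CPM with IAA, a log2 fold change of 0.65 ± 0.08 (adjusted p = 4.57e-07). RPB7 (0.63), RPB11 (0.55), RPB5 (0.48), RPB2 (0.40), RPB4 (0.38) and RPB3 (0.33) also rose. In these 8 genes the groups did not overlap, as was so for 31.7% of all genes upward. None of the 10 moved past a log2 fold change of 1 (7.07% of all genes upward and 5.73% downward). Scaled by total library size, 5 genes in place of 8 rose, and the share of all genes on that scale was not computed.

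RPB9 measured 46.3, 52.8 and 40.3 CPM with DMSO and 33.1, 47.3 and 31.7 CPM with IAA, and the groups overlapped. Its log2 fold change of -0.31 ± 0.14 had an adjusted p of 0.0473. The call was lost with DESeq2 size factors, with another filter, with only the 6 libraries compared and with the DESeq2 Wald test. It was also lost without DMSO replicate 1 (adjusted p = 0.100) or 2 (0.222) or IAA replicate 1 (0.185) or 3 (0.266). The call of RPB3 was lost without DMSO replicate 2 (0.0569) or IAA replicate 1 (0.0575). RPB10 had a log2 fold change of 0.13 and did not pass.

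**Figure D3:**
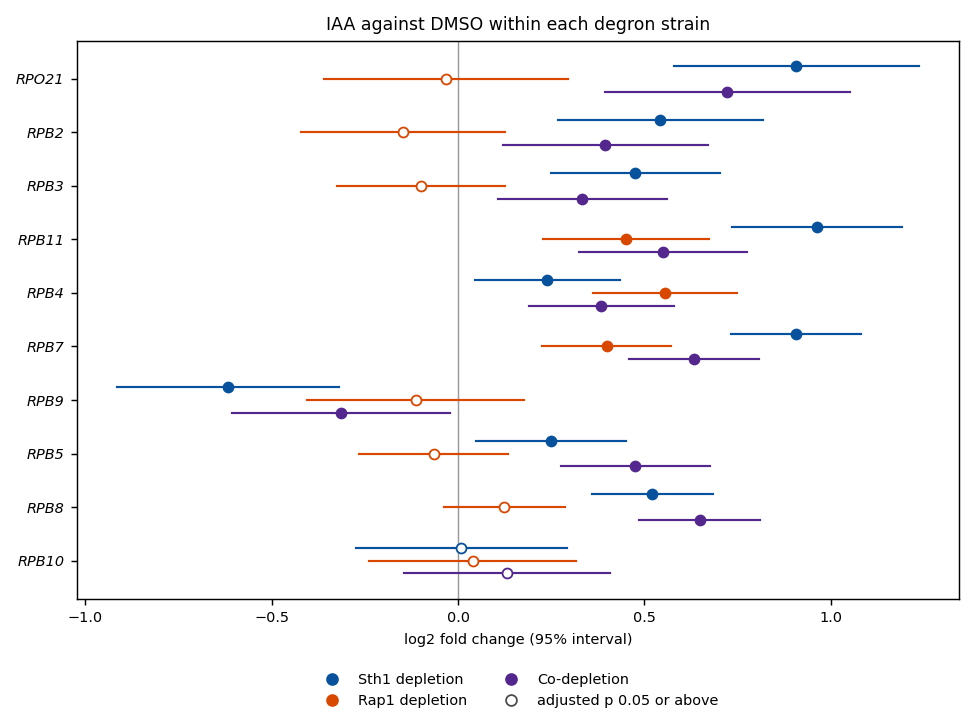
Log2 fold change of IAA against DMSO in each strain, with 95% intervals on 14 residual degrees of freedom; filled points passed an adjusted p of 0.05. RPB11, RPB4 and RPB7 have filled points above 0 in all 3 strains, and RPB9 is the gene with filled points below 0.

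The effects themselves were compared between strains by interaction terms. Sth1 depletion gave a larger log2 fold change than Rap1 depletion for 7 genes, where 31.4% of all genes did, with differences between 0.31 for RPB5 and 0.94 for RPO21. It gave a smaller one for RPB4 (-0.31 ± 0.13, adjusted p = 0.0346) and RPB9 (-0.50 ± 0.19, adjusted p = 0.0277), where 37.6% of all genes did. The call of RPB4 was lost with DESeq2 size factors (adjusted p = 0.0657) and the DESeq2 Wald test (0.0663). For its stalk partner RPB7 the difference was 0.51 ± 0.11 (adjusted p = 6.58e-04), which did not pass when scaled by total library size (0.13, adjusted p = 0.397). No difference exceeded 1 on the log2 scale, against 11.6% of all genes upward and 17.5% downward. Scaled by total library size, 1 gene in place of 7 passed upward, and the share of all genes on that scale was not computed. These tests leaned on single libraries for RPB4, RPB9 and RPB5, as given in the closing section.

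Co-depletion differed from Sth1 depletion for RPB11, whose increase was smaller by 0.41 ± 0.15 (adjusted p = 0.0417), where 10.5% of all genes were lower. The IAA libraries of the 2 strains overlapped, at 45.7 to 51.3 CPM after co-depletion and 49.6 to 54.0 CPM after Sth1 depletion. Their DMSO libraries did not, at 30.4 to 36.7 CPM in RAP1-AID/STH1-AID and 24.7 to 28.2 CPM in STH1-AID. No gene passed upward, where 19.6% of all genes did, and none differed by more than 1 (3.74% of all genes upward and 3.17% downward). The RPB11 call was lost on leaving out any 1 of 9 of the 12 libraries (adjusted p = 0.0584 to 0.141). Co-depletion exceeded Rap1 depletion for 5 genes, where 25.7% of all genes did: RPO21 (0.75), RPB2 (0.54), RPB5 (0.54), RPB8 (0.52) and RPB3 (0.43). None was lower, where 29.3% of all genes were, and no difference exceeded 1 (6.57% of all genes upward and 6.36% downward). Scaled by total library size, 0 genes passed upward and 2 downward, and the shares of all genes on that scale were not computed. The RPB3 call was lost in 4 of 12 fits with 1 library left out (highest adjusted p = 0.0636). For RPB11, RPB4 and RPB7, which had risen after Rap1 depletion alone, the differences were 0.10, -0.17 and 0.23 and did not pass. These 2 comparisons share the co-depletion libraries.

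The DMSO-treated degron strains were compared with WT, and these 3 comparisons share the WT libraries. In STH1-AID, RPB3 (0.43) and RPB7 (0.23) were higher, where 18.5% of all genes were, and RPB2 (-0.39) and RPB10 (-0.44) lower, where 19.4% were. In RAP1-AID, RPB7 (0.40) and RPB11 (0.37) were higher, where 22.7% were, and RPB2 (-0.40) and RPB10 (-0.44) lower, where 22.1% were. In RAP1-AID/STH1-AID, RPB7 (0.45), RPB11 (0.40), RPB9 (0.39) and RPB8 (0.23) were higher, where 16.3% were, and none was lower, where 17.0% of all genes were.

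Groups were separate in STH1-AID for 4 genes upward (24.6% of all genes) and for RPB10 downward (26.2%). In RAP1-AID they were separate for 2 upward (26.9%) and for RPO21, RPB2 and RPB10 downward (29.6%). In RAP1-AID/STH1-AID they were separate for 4 upward (22.5%) and none downward (24.2%). No gene passed a log2 fold change of 1 against WT, as 3.57% of all genes did upward and 1.99% downward in STH1-AID, 6.65% and 3.15% in RAP1-AID, and 3.90% and 2.46% in RAP1-AID/STH1-AID.

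RPB3 measured 313, 287 and 302 CPM in WT and 441, 387 and 386 CPM in STH1-AID with DMSO, so the tagged gene differed between strains before IAA (log2 fold change 0.43 ± 0.11, adjusted p = 0.00330). RPB10 measured 17.7, 17.1 and 21.4 CPM in WT and 14.1, 13.6 and 13.7 CPM in STH1-AID with DMSO, with every WT library above. Without WT replicate 3, the highest WT library for RPB10 and RPB2, neither gene passed in STH1-AID (adjusted p = 0.0915 and 0.117) or in RAP1-AID (0.0762 and 0.0821). The RPB2 call in STH1-AID, where the groups overlapped, was also lost without DMSO replicate 1 (0.0851) or 2 (0.0960). It was lost with only the libraries compared (0.0529) as well. The RAP1-AID calls were also lost without DMSO replicate 2 for RPB2 (0.0897) and without DMSO replicate 3 for RPB10 (0.0509). For the strain with both degrons, the calls of RPB9 and RPB8 were each lost in 5 of 6 fits with 1 library left out. In STH1-AID, that of RPB7 was lost without WT replicate 1 (adjusted p = 0.117) or DMSO replicate 2 (0.157) or 3 (0.0706), and with only the libraries compared (0.0742). RPB7 was lowest in WT, at 24.7, 27.0 and 27.2 CPM, and its WT libraries lay below those of every other group.

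**Figure D4:**
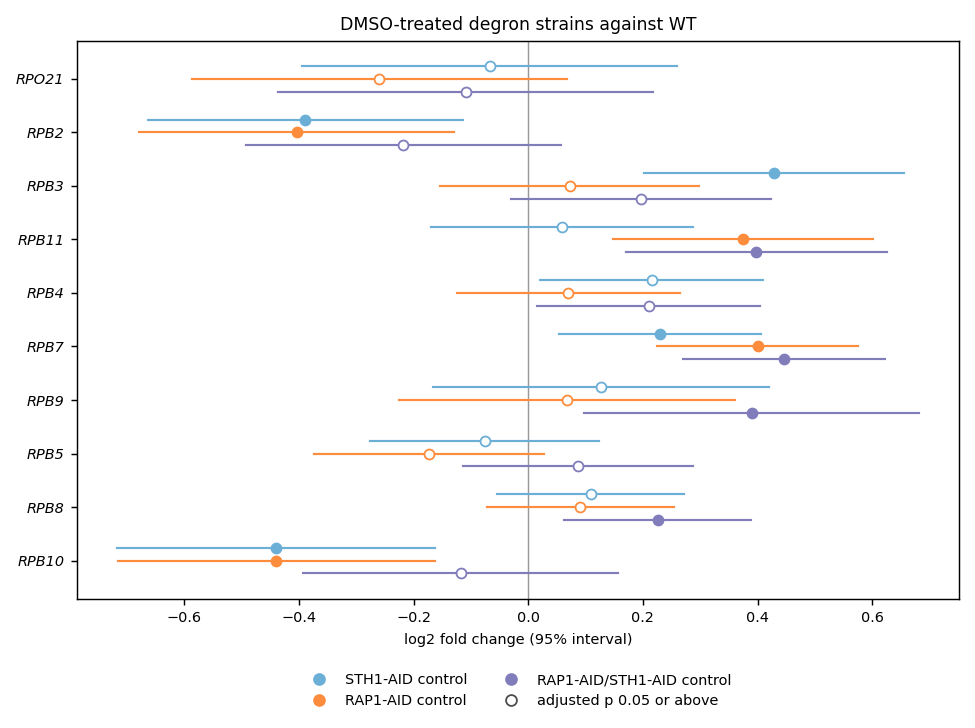
Log2 fold change of each DMSO-treated degron strain against WT, with 95% intervals; filled points passed an adjusted p of 0.05. RPB7 has filled points above 0 in all 3 strains, and RPB2 and RPB10 have filled points below 0 in STH1-AID and RAP1-AID.

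Across the 7 groups, the mean CPM of RPB7 and RPO21 varied most, 2.20-fold and 2.19-fold, and that of RPB10 least, 1.37-fold. RPO21 and RPB3 were highest in Sth1-depleted cells, RPB8 and RPB5 in co-depleted cells and RPB4 in Rap1-depleted cells. For RPB8 and RPB5 the co-depleted libraries lay above those of the next group, whereas for RPO21 and RPB4 the first and second groups overlapped.

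Over the 21 libraries, which share groups and scaling, log2 CPM of RPB11 and RPB7 had a Pearson correlation of 0.95 and RPO21 and RPB2 of 0.88. RPO21 and RPB9 had one of -0.64. RPB8 followed the mean of the other 9 genes most closely (r = 0.94) and RPB9 went against it (r = -0.40). Outside the 10, the genes most like their mean profile among 5373 candidates were TIF6 (r = 0.960), HMX1 (0.957), ZUO1 (0.956), OLA1 (0.947) and SEC53 (0.946).

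Other transcription machinery genes did not share 1 direction. Their counts after Sth1 depletion stand against 35.9% of all genes that rose and 40.9% that fell, with a median of -0.06. After Sth1 depletion, 6 of 9 RNA polymerase I genes rose and none fell (median log2 fold change 0.43), with RPA14 highest at 0.92. This list includes RPC40 and RPC19, which are shared with RNA polymerase III. Of 10 RNA polymerase III genes, 4 rose and 3 fell (median -0.01), from RPC34 (-1.38) to RPC82 (1.01). RPO26, a subunit shared by all 3 polymerases, rose (0.33), and RPC10, the other shared subunit, had 0.43 and did not pass.

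Against the same shares of all genes, 35.9% and 40.9%, 7 of 19 general transcription factor genes rose and 11 fell (median -0.34), from TFB4 (-2.03) to SSL2 (0.48), both of the TFIIH complex. Of 13 elongation factor genes, 4 rose and 7 fell (median -0.23), from the Paf1 complex gene CTR9 (-0.61) to the FACT gene SPT16 (0.81). Of 11 genes for polymerase assembly, import and turnover, 5 rose and 5 fell (median 0.13), from GPN3 (-1.26) to BUD27 (1.09). Of 7 genes for enzymes of the carboxy-terminal domain, 1 rose and 3 fell (median -0.30), with BUR1 at 0.97 and KIN28 at -1.11. KIN28 is counted among the general transcription factor genes as well.

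After Rap1 depletion, where 12.8% of all genes rose and 13.3% fell, 3 of 9 RNA polymerase I genes fell and none rose (median -0.12), with RPA43 lowest at -0.76, and 2 of 19 general factor genes rose and 2 fell (median 0.13), near the shares of all genes. After co-depletion, where 32.2% of all genes rose and 37.5% fell, 5 of 9 RNA polymerase I genes rose and 2 fell (median 0.21), and 6 of 19 general factor genes rose and 11 fell (median -0.36).

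**Figure D5:**
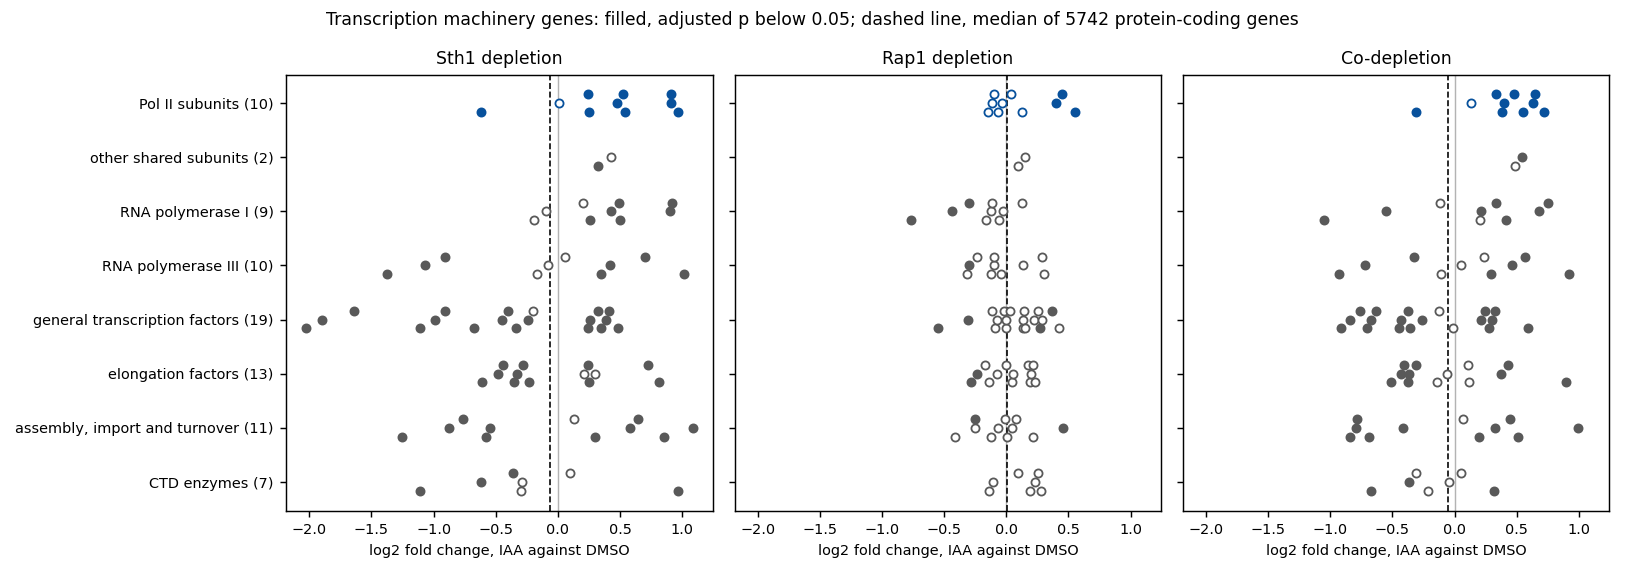
Log2 fold change of IAA against DMSO for the 10 polymerase II genes (blue) and 7 other lists (grey, with the number of genes), on 1 scale in the 3 panels; filled points passed an adjusted p of 0.05 and the dashed line is the median of 5742 genes. After Sth1 depletion 8 of 10 polymerase II points are filled above 0, while the general factor genes extend down to -2.03.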

How the data were processed

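The deposited table held RSEM expected counts and TPM per feature for 21 nascent RNA-seq libraries. Per the study's methods and the submitters' processing notes, the authors trimmed reads with cutadapt 1.9.1 and estimated strand-specific expected counts with RSEM 1.3.0 and STAR 2.5.2a on the R64 genome. The deposited TPM values were made by the authors from the same estimates and use effective lengths, which raise very short genes. Between 7.82% and 9.25% of a library's expected counts were not whole, and all were rounded here.

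Counts were TMM-scaled and fitted with edgeR 4.0.16 in R 4.3.3, with 1 coefficient per group, 14 residual degrees of freedom and edgeR's expression filter. P-values from the quasi-likelihood test were adjusted by Benjamini-Hochberg over 5742 protein-coding genes, and a gene was called at an adjusted p below 0.05. Errors of fold changes are standard errors. P-values rest on the spread between replicates within groups, estimated jointly over all 21 libraries and not only over the groups compared. Depth limits RPB10 most, with as few as 219 counts.

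The 10 genes are described in every comparison. Other lists are given by their counts, median and extremes, and similar genes are the 5 with the highest Pearson correlation among those with a mean of at least 50 counts. The genes and lists were chosen with earlier results of these data known. Alternatives were DESeq2 1.42.0 (size factors and Wald test), total library size, other filters, all features, only the libraries compared, other thresholds, a replicate block and leaving out each library. Replicate numbers paired the Rap1 depletion libraries by their shared deviations (correlations of same-numbered libraries from 0.20 to 0.47), and the block changed no call there. Positions and sequences are from the RefSeq R64 assembly.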

Additional observations from a re-analysis of the deposited data

Results flagged for a closer look

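The effect of IAA differed between strains for several of the genes, by the interaction terms of edgeR's quasi-likelihood test. Between Sth1 and Rap1 depletion, the log2 fold changes differed by 0.94 for RPO21, 0.69 for RPB2, 0.58 for RPB3, 0.51 for RPB11, 0.51 for RPB7, 0.40 for RPB8 and 0.31 for RPB5, all higher after Sth1 depletion. They differed by -0.31 for RPB4 and -0.50 for RPB9. Between co-depletion and Sth1 depletion the difference was -0.41 for RPB11. Between co-depletion and Rap1 depletion it was 0.75 for RPO21, 0.54 for RPB2, 0.43 for RPB3, 0.54 for RPB5 and 0.52 for RPB8.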

How the results depend on the processing

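Of 720 values recomputed with 1 library left out, 626 kept their direction and call, and of 720 under other settings 658 did. Requiring a log2 fold change above 1 left 0 genes in every comparison. Scaling by total library size moved the median of all genes to -0.31, 0.13 and -0.26 in Sth1, Rap1 and co-depletion and to 0.12, 0.17 and 0.13 in the controls. On that scale 5 genes were higher after co-depletion, 1 was higher in Sth1 against Rap1 depletion, 0 were lower in co-depletion against Sth1 depletion, and 0 were higher and 2 lower in co-depletion against Rap1 depletion. Against WT, 0 were then lower in STH1-AID, and 5 were higher and 0 lower in RAP1-AID. Values that changed sign with it were RPB4 -0.013, RPB5 -0.00060 and RPB10 -0.24 in Sth1 depletion, RPO21 0.086, RPB3 0.021, RPB9 0.011 and RPB5 0.060 in Rap1 depletion, and RPB10 -0.080 in co-depletion. So did RPO21 0.056 and RPB5 0.045 in STH1-AID, RPB5 0.013 in RAP1-AID, and RPO21 0.024 and RPB10 0.018 in RAP1-AID/STH1-AID against WT. In Sth1 against Rap1 depletion RPB5 became -0.060, and in co-depletion against Rap1 depletion RPB11 became -0.23, RPB7 -0.094 and RPB10 -0.24. RPB10 also changed sign without a filter in Sth1 depletion (-0.0059) and with DESeq2 size factors (0.014) and the DESeq2 Wald test (0.013) in Sth1 against Rap1 depletion. The cause was not tested.

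The lower call after co-depletion went to 0 with DESeq2 size factors, a mean of at least 10 counts, only the libraries compared, the DESeq2 Wald test and an adjusted p of at most 0.01. With only the libraries compared, STH1-AID had 1 higher and 1 lower gene. DESeq2 size factors and the Wald test each left 1 lower gene in Sth1 against Rap1 depletion, RPB4 being the one lost. At an adjusted p of at most 0.01, STH1-AID had 1 higher and 0 lower, RAP1-AID 1 lower, RAP1-AID/STH1-AID 2 higher, Sth1 against Rap1 depletion 0 lower, co-depletion against Sth1 depletion 0 lower, and co-depletion against Rap1 depletion 3 higher. The replicate block gave 4 lower genes for RAP1-AID against WT, 1 for the strain with both degrons, and left the other counts as they were. Same-numbered libraries correlated from 0.086 to 0.35 in Sth1 depletion and from 0.064 to 0.47 in co-depletion. Differently numbered pairs there reached at most 0.033 and 0.12. Replicate numbers thus carried some shared deviations in these comparisons as well, and the main fit left them out. Against WT, same-numbered libraries correlated from -0.0045 to 0.055 in STH1-AID and from -0.016 to 0.11 in RAP1-AID. In RAP1-AID/STH1-AID they correlated from -0.065 to 0.20.

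With 1 library left out, higher calls ranged from 6 to 8 in Sth1 depletion, 3 to 4 in Rap1 depletion, 7 to 8 in co-depletion, 1 to 3 in STH1-AID, 2 to 2 in RAP1-AID, 1 to 3 in RAP1-AID/STH1-AID, 6 to 7 in Sth1 against Rap1 depletion and 4 to 6 in co-depletion against Rap1 depletion. Lower calls ranged from 1 to 1 in Sth1 depletion, 0 to 1 in co-depletion, 0 to 2 in STH1-AID and RAP1-AID, 0 to 2 in Sth1 against Rap1 depletion, 0 to 1 in co-depletion against Sth1 depletion and 0 to 1 in co-depletion against Rap1 depletion. In Sth1 against Rap1 depletion, the calls were lost in 5 of 12 such fits for RPB4, 6 of 12 for RPB9 and 9 of 12 for RPB5. Values that changed sign, none of them called, were RPB10 in Sth1 depletion (-0.050 to 0.088), Rap1 depletion (-0.040 to 0.16), Sth1 against Rap1 depletion (-0.16 to 0.055) and co-depletion against Rap1 depletion (-0.033 to 0.19), RPO21 in Rap1 depletion (-0.17 to 0.088) and in STH1-AID (-0.14 to 0.026), RPB11 in STH1-AID (-0.024 to 0.19) and RPB4 in RAP1-AID (-0.00079 to 0.14).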
